A study of Homo sapiens with 6 samples.

Results

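Genes that were silent in RMS13 cells and expressed in their drug-resistant derivative RMS13-R are described here. A gene was taken as switched on where its level was under 1 TPM in all 4 parental libraries and 3 TPM or more in both RMS13-R libraries, where TPM counts a gene's transcripts per 1000000 transcripts of the library. Of 55401 gene names in the deposited tables, 31 met these limits, which is 0.0775% of the 39986 names that were under 1 TPM in every parental library. The genes were chosen by these measured TPM values, so their differences between RMS13-R and parental libraries are given as a description, with no test.

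RMS13 is an established human cell line from an alveolar rhabdomyosarcoma, a tumour with features of skeletal muscle, and MAL3-101 is a synthetic compound that inhibits HSP70 chaperones. RNA was sequenced from RMS13-R cells with 10 µM MAL3-101, from parental RMS13 cells with 10 µM MAL3-101 and from parental RMS13 cells with DMSO, the vehicle, all for 9 h in medium with serum. Each of the 3 groups had 2 libraries, A and B. RMS13-R is labelled as having derived resistance to MAL3-101, and whether it is 1 clone or a mixed population is not given in the sources used here. RMS13-R cells without MAL3-101 were not analysed here, and the line and its response to the drug cannot be told apart. Whether libraries A and B came from separate cultures is not in the labels, so a p-value here rests on the spread between libraries, which may be technical. TPM keeps no read depth, so no counting interval is given.

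Rhabdomyosarcoma cells resemble skeletal muscle precursors that have not finished differentiating, and they carry the muscle transcription factors MYOD1 and MYOG. In a cell of 1 lineage most genes of other tissues are silent, which is generally tied to closed chromatin, DNA methylation and the lack of the factors that drive them. Genes with many CpG dinucleotides at their start are often read in many tissues, whereas genes with few CpG are more often restricted to 1 tissue.

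The label of the cells held in the summed muscle markers. The summed level of 11 muscle and rhabdomyosarcoma markers was 2470 and 2510 TPM in RMS13-R, 2930 and 2930 TPM in parental cells with MAL3-101 and 3390 and 3310 TPM with DMSO. Single markers differed in direction. MYOG, DES and PAX3 were higher in both RMS13-R libraries than in any parental one, and MYOD1, FGFR4, CHRNA1 and TNNT2 were lower. CHRNA1 stood at 52.09 and 49.89 TPM in RMS13-R and 285.18 to 337.16 TPM in parental libraries. MYF5 was listed at 0 in all 6 libraries. Of the markers of other cell types, 8 epithelial genes summed to 0.94 to 1.47 TPM in RMS13-R against 12.6 to 30.0 TPM in the parental libraries, and 8 blood genes to at most 1.45 TPM in any library. Fibroblast markers summed to 138 and 139 TPM in RMS13-R against 42.2 to 54.1 TPM in parental libraries, carried by the collagen gene COL3A1 at 133.64 and 134.89 TPM, while LUM, THY1 and POSTN were listed at 0 in both RMS13-R libraries. Endothelial markers summed to 20.2 and 22.1 TPM against 2.15 to 3.60 TPM, carried by the receptor gene TEK at 18.86 and 20.89 TPM, with CDH5 and VWF at 0.11 TPM or less in RMS13-R. Neuronal markers summed to 69.3 and 73.1 TPM in RMS13-R and 79.6 to 96.6 TPM in parental libraries. TUBB3 and MAP2 carried that sum, with 28.17 and 31.22 TPM and 40.38 and 41.10 TPM in RMS13-R. Glial markers summed to 9.47 and 10.4 TPM against 6.88 to 12.1 TPM, carried by OLIG2. Germ cell and pluripotent markers summed to 3.01 and 3.13 TPM against 4.35 to 5.19 TPM. None of these markers was among the 31 genes, and their part in the levels given here was not tested. Between 13918 and 14334 genes reached 1 TPM in a library. In a bulk sample, fewer cells that express a gene and less RNA per cell cannot be told apart.

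The genes switched on were expressed at low to moderate levels. Of the 31, 3 had a mean of 10 TPM or more in RMS13-R, 8 lay between 5 and 10 TPM and 20 were under 5 TPM, with a median of 4.39 TPM in RMS13-R and 0.38 TPM over the parental libraries. The ratio of the RMS13-R mean to the parental mean ran between 6.25 and 264, with a median of 15.6. No gene was listed at 0 in all 4 parental libraries, 9 were at 0 in some of them, and 22 had a value above 0 in each. The RMS13-R libraries gave close values, since the higher was at most 1.44 times the lower, with a median of 1.1. The plot of levels by library shows the distance between the groups for every gene.

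**Figure D1:**
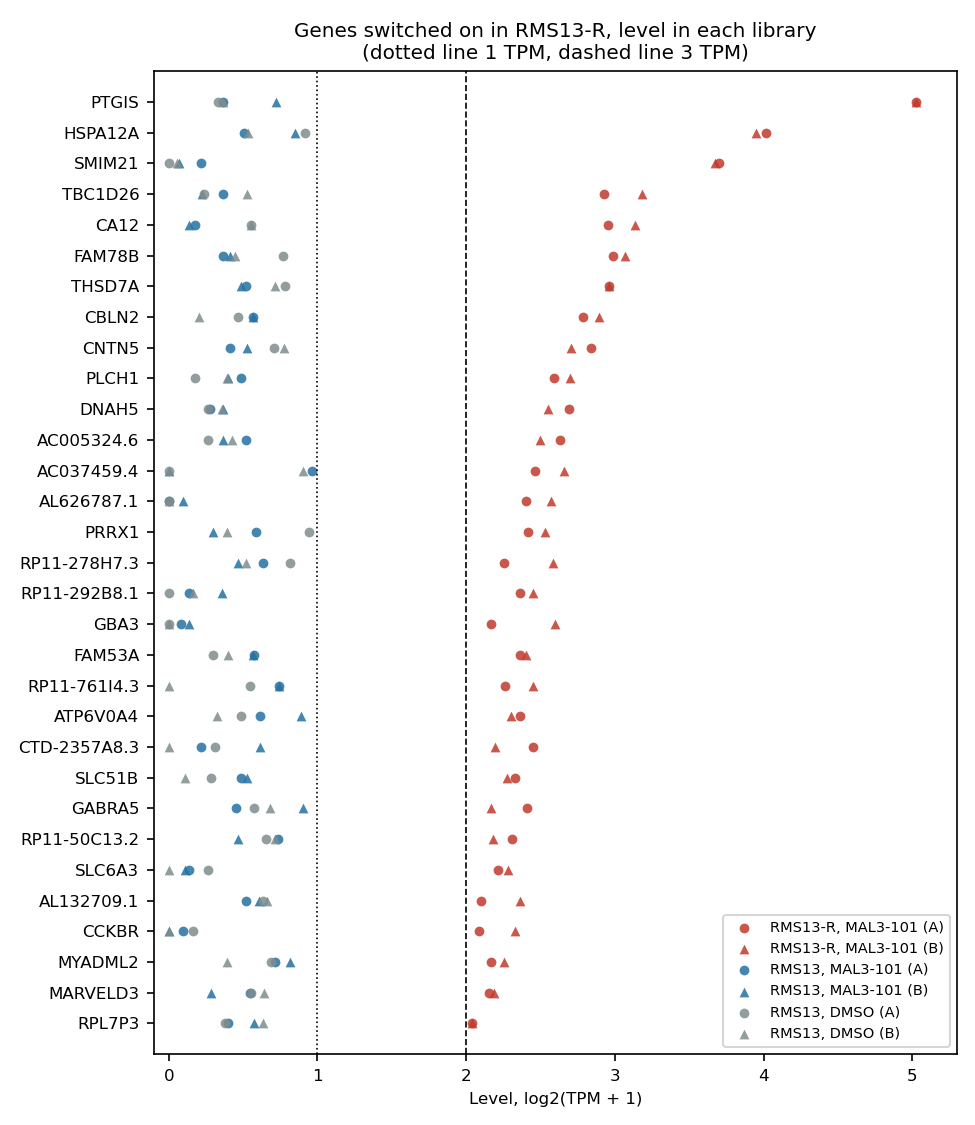
Level of each of the 31 genes, as log2(TPM + 1), in the 2 RMS13-R libraries (red), the 2 RMS13 libraries with MAL3-101 (blue) and the 2 RMS13 libraries with DMSO (grey); circles are library A and triangles library B. PTGIS, HSPA12A and SMIM21 stand above 10 TPM in RMS13-R, and the other genes lie nearer to the limit of 3 TPM.

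PTGIS encodes prostacyclin synthase, which turns prostaglandin H2 into prostacyclin, a lipid mediator that widens vessels and blocks platelet aggregation. It had the highest level of the 31, with 31.56 and 31.59 TPM in RMS13-R, against 0.29 and 0.65 TPM in parental cells with MAL3-101 and 0.26 and 0.29 TPM with DMSO. The genes of the cyclooxygenases, which supply its substrate, were at or near 0. PTGS1, a cyclooxygenase, stood at 0.07 and 0.00 TPM in RMS13-R, 0.78 and 0.72 TPM in parental cells with MAL3-101 and 0.24 and 0.18 TPM with DMSO, and PTGS2, the inducible cyclooxygenase, was listed at 0 in all 6 libraries. The prostacyclin receptor gene PTGIR was at 0.05 and 0.03 TPM in RMS13-R and at most 0.43 TPM in any parental library. In a set of 20 genes of prostanoid synthesis, breakdown, export and reception, 7 could be tested between RMS13-R and parental cells, both with MAL3-101. By limma's test 2 of these were higher in RMS13-R, 4 lower and 1 was not called, where 21.3% of all 15148 tested genes were higher and 34.8% lower. Without RMS13-R library A or B 1 was higher and 2 lower, and without parental MAL3-101 library A or B 1 was higher and 3 lower. PTGER4, a receptor for prostaglandin E2, stood at 11.20 and 10.49 TPM in RMS13-R and 6.41 and 5.10 TPM in parental cells with MAL3-101 (log2 fold change 0.82, SE 0.12, adjusted p = 0.0012 by limma). All log2 fold changes here are on the log2(TPM + 1) scale, which understates the change of low genes.

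The counts over all tested genes shift with scaling. As deposited, 56.1% of tested genes were called between RMS13-R and parental cells with MAL3-101, 3228 higher and 5267 lower in RMS13-R, and with median-ratio scaling the numbers were 4240 and 4356. Against parental cells with DMSO 50.6% were called, 3160 (20.9%) higher and 4502 (29.7%) lower, with 4071 and 3764 under median-ratio scaling. The median log2 fold change of all tested genes was -0.10 against parental cells with MAL3-101 and -0.06 against DMSO, and 0.00 and 0.02 under that scaling. Relatives of the 31 genes were looked up in sets chosen after the 31 were known, so their counts are a description.

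HSPA12A encodes an atypical member of the HSP70 family, the family that MAL3-101 inhibits. Its levels were 15.19 and 14.43 TPM in RMS13-R, 0.42 and 0.80 TPM in parental cells with MAL3-101 and 0.89 and 0.45 TPM with DMSO, so that the parental groups overlapped and both lay far below RMS13-R. Of the 14 other tested genes of the family, 0 were higher in RMS13-R than in parental cells with MAL3-101, 11 were lower and 3, HSPA8, HSPA13 and HSPA2, were not called, and 10 or 11 were lower under each alternative setting of the fit. Against DMSO, 6 were higher and 4 lower. Some of the family differed widely between the parental groups. HSPA1B averaged 187 TPM in RMS13-R, 2310 TPM in parental cells with MAL3-101 and 129 TPM with DMSO. HSPA5 averaged 750, 2840 and 638 TPM in the same order of groups, and HSPA8 1310, 1220 and 2060 TPM. In the wider list of 113 HSP70, J-domain and co-chaperone genes, HSPA12A was the 1 gene switched on. Of 74 other tested genes 4 were higher and 43 lower than in parental cells with MAL3-101, and 15 were higher and 33 lower than with DMSO.

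SMIM21 encodes a small integral membrane protein with little known about it. It had 12.01 and 11.75 TPM in RMS13-R, 0.16 and 0.05 TPM in parental cells with MAL3-101 and 0.00 and 0.04 TPM with DMSO. The lower RMS13-R library was 73.4 times the highest parental one, the widest gap of the 31 genes. TBC1D26 belongs to the TBC domain genes, many of whose products switch off Rab GTPases of membrane traffic. It had 6.61 and 8.06 TPM in RMS13-R, 0.29 and 0.17 TPM in parental cells with MAL3-101 and 0.18 and 0.44 TPM with DMSO. TBC1D28, a close relative on the same chromosome, stood at 1.25 and 1.15 TPM in RMS13-R, 0.23 and 0.19 TPM in parental cells with MAL3-101 and 0.26 and 0.27 TPM with DMSO (log2 fold change against MAL3-101 0.86, SE 0.16, adjusted p = 0.00315 by limma). Of 34 other tested TBC domain genes, TBC1D28 among them, 8 were higher, 9 lower and 17 not called, with 11 higher and 8 lower under median-ratio scaling, 5 and 7 without parental MAL3-101 library A and 6 and 6 without RMS13-R library A. Reads shared by genes as similar as TBC1D26 and TBC1D28 may have been divided between them in the deposited values, so the level of each is uncertain.

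The bases before the starts of HSPA12A, SMIM21, TBC1D26 and CA12 are shown because these are the 4 highest of the genes found in RefSeq's promoter table. Their CpG content differed. Each line holds the 250 bases before the RefSeq start on the gene's own strand, on build GRCh38.p14, with CpG dinucleotides in capitals. They are the reference sequence and were not read from these cells. HSPA12A lies at chr10:116849723-116849972 on the minus strand, SMIM21 at chr18:75427704-75427953 on the minus strand, TBC1D26 at chr17:15732027-15732276 on the plus strand and CA12 at chr15:63381847-63382096 on the minus strand.
HSPA12A: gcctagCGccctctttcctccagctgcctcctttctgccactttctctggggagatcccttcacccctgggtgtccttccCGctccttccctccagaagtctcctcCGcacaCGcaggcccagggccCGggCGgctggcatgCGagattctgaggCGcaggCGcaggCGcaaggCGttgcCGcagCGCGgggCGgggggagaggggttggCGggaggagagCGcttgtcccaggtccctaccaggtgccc
SMIM21: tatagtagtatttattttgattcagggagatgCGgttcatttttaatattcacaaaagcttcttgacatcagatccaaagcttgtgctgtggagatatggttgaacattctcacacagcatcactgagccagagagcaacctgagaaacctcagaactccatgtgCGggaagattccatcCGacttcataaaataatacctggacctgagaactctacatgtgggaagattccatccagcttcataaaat
TBC1D26: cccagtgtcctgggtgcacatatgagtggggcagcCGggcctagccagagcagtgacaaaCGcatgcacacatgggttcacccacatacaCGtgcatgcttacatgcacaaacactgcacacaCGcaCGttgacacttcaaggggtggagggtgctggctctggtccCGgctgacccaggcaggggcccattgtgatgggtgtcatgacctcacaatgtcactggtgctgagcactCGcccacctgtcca
CA12: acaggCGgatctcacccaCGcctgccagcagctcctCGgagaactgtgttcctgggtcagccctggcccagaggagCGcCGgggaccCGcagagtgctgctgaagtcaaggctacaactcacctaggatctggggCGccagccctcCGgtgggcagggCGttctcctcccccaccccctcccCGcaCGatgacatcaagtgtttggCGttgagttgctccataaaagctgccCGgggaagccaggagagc
The 250 bases held 17 CpG before HSPA12A, 3 before SMIM21, 7 before TBC1D26 and 13 before CA12, with 69.2%, 40.4%, 59.2% and 64.8% G and C.

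CA12 encodes a carbonic anhydrase of the cell surface, which interconverts carbon dioxide and bicarbonate outside the cell. It stood at 6.73 and 7.77 TPM in RMS13-R, against 0.13 and 0.10 TPM in parental cells with MAL3-101 and 0.47 and 0.47 TPM with DMSO. No other carbonic anhydrase gene was switched on. Of 6 tested, 0 were higher and 4 lower in RMS13-R than in parental cells with MAL3-101. With median-ratio scaling or a replicate block 0 were higher and 3 lower. Against DMSO, 1 was higher and 3 lower. CA3, the carbonic anhydrase of skeletal muscle, had 37.16 and 37.02 TPM in RMS13-R and 80.20 and 80.25 TPM in parental cells with MAL3-101 (log2 fold change -1.09, SE 0.07, adjusted p = 3.59e-05 by limma). CA2, a cytosolic form, had 1.70 and 1.93 TPM against 6.30 and 6.77 TPM.

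ATP6V0A4 encodes a form of the membrane subunit a of the proton-pumping V-ATPase that is best known from acid-secreting cells of the kidney. Its levels were 4.15 and 3.93 TPM in RMS13-R, 0.53 and 0.85 TPM in parental cells with MAL3-101 and 0.40 and 0.25 TPM with DMSO. ATP6V0A2, another form of the same subunit, was lower, with 14.48 and 13.27 TPM in RMS13-R and 31.23 and 30.26 TPM in parental cells with MAL3-101 (log2 fold change -1.09, SE 0.07, adjusted p = 3.66e-05 by limma). Of 18 other tested V-ATPase genes, 3 were higher and 10 lower, with 1 and 6 without RMS13-R library A, 1 and 5 without B, and 1 and 7 without parental MAL3-101 library A or B. SLC51B encodes the beta subunit of a bile acid and steroid transporter, and it had 4.02 and 3.83 TPM in RMS13-R, 0.40 and 0.44 TPM in parental cells with MAL3-101 and 0.22 and 0.08 TPM with DMSO. Its partner subunit SLC51A was expressed in all libraries, with 1.99 and 2.39 TPM in RMS13-R, 1.32 and 1.56 TPM in parental cells with MAL3-101 and 1.51 and 2.57 TPM with DMSO, and was not called (log2 fold change 0.39, SE 0.20, adjusted p = 0.14 by limma). SLC6A3 encodes the dopamine transporter of dopaminergic neurons, and it had 3.63 and 3.87 TPM in RMS13-R, 0.10 and 0.08 TPM in parental cells with MAL3-101 and 0.20 and 0.00 TPM with DMSO. Its relative SLC6A9, a glycine transporter, moved with the drug in parental cells: it had 3.14 and 3.73 TPM in RMS13-R, 19.04 and 19.36 TPM in parental cells with MAL3-101 and 0.84 and 1.05 TPM with DMSO.

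GABRA5 encodes the alpha-5 subunit of the GABA-A receptor, a chloride channel of inhibitory synapses that is built of several kinds of subunit. It had 4.30 and 3.50 TPM in RMS13-R, 0.37 and 0.87 TPM in parental cells with MAL3-101 and 0.49 and 0.60 TPM with DMSO. GABRA3 and GABRE, other subunit genes of this receptor, were lower in RMS13-R. GABRA3 was at 0.01 and 0.00 TPM in RMS13-R, 1.21 and 0.80 TPM in parental cells with MAL3-101 and 2.04 and 1.61 TPM with DMSO, and GABRE was at 1.2 and 1.56 TPM, 5.33 and 5.82 TPM, and 3.68 and 5.79 TPM in the same order of groups. CCKBR encodes the receptor for gastrin and cholecystokinin, and it had 3.24 and 4.02 TPM in RMS13-R, 0.07 and 0.00 TPM in parental cells with MAL3-101 and 0.12 and 0.00 TPM with DMSO. Its ligand genes CCK and GAST were listed at 0 in all 6 libraries, and the related receptor gene CCKAR was at 0.41 TPM or less.

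CNTN5 encodes a contactin, a neuronal adhesion molecule anchored to the membrane by a lipid. It had 6.15 and 5.51 TPM in RMS13-R, 0.33 and 0.44 TPM in parental cells with MAL3-101 and 0.63 and 0.71 TPM with DMSO. Its relative CNTN6 went the opposite way, to 0.05 and 0.03 TPM in RMS13-R, against 1.39 and 1.17 TPM in parental cells with MAL3-101 and 1.29 and 1.07 TPM with DMSO (log2 fold change -1.13 against MAL3-101, SE 0.16, adjusted p = 0.000959 by limma). CBLN2 encodes a cerebellin, a secreted protein that helps to organise synapses. It had 5.88 and 6.43 TPM in RMS13-R, 0.48 and 0.48 TPM in parental cells with MAL3-101 and 0.38 and 0.15 TPM with DMSO.

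THSD7A encodes a membrane protein with thrombospondin type 1 domains that is known as a target of antibodies in a kidney disease. Its RMS13-R values were 6.79 and 6.78 TPM, against 0.43 and 0.40 TPM in parental cells with MAL3-101 and 0.72 and 0.64 TPM with DMSO. Of the thrombospondin genes themselves, THBS1 was lower, with 8.88 and 7.52 TPM in RMS13-R and 35.95 and 31.10 TPM in parental cells with MAL3-101, and THBS4 was higher, with 10.31 and 10.68 TPM against 5.87 and 5.27 TPM (log2 fold change 0.81, SE 0.14, adjusted p = 0.00231 by limma). MARVELD3 encodes a tight junction protein, and it had 3.45 and 3.56 TPM in RMS13-R, 0.46 and 0.22 TPM in parental cells with MAL3-101 and 0.47 and 0.56 TPM with DMSO. Of the epithelial markers, EPCAM stood at 0.23 and 0.19 TPM in RMS13-R and 3.5 to 6.0 TPM in parental libraries, and CDH1, the E-cadherin gene, at 0.24 and 0.30 TPM in RMS13-R and at most 0.43 TPM in parental libraries.

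PLCH1 encodes a phospholipase C, an enzyme that splits a membrane lipid to release calcium signals. It had 5.01 and 5.5 TPM in RMS13-R, 0.40 and 0.32 TPM in parental cells with MAL3-101 and 0.13 and 0.31 TPM with DMSO. PLCB2, a phospholipase C driven by G proteins, was expressed in all groups and higher in RMS13-R, at 89.90 and 94.31 TPM, 28.21 and 30.56 TPM in parental cells with MAL3-101 and 16.68 and 11.75 TPM with DMSO (log2 fold change 1.62 against MAL3-101, SE 0.14, adjusted p = 9.86e-05 by limma). Of 8 other tested phospholipase C genes, PLCB2 among them, 2 were higher, 1 lower and 5 not called; 1 was higher without RMS13-R library B, and 0 were lower without RMS13-R library A or parental MAL3-101 library B. PRRX1 encodes a homeobox transcription factor of embryonic mesenchyme, and was the 1 gene switched on of 165 homeobox genes in the files. It had 4.34 and 4.78 TPM in RMS13-R, 0.50 and 0.23 TPM in parental cells with MAL3-101 and 0.92 and 0.31 TPM with DMSO, which puts its DMSO library A close to the limit of 1 TPM. DNAH5 encodes a heavy chain of the dynein motor of motile cilia, with the longest transcript of the located genes at 15633 bases. It had 5.46 and 4.86 TPM in RMS13-R, 0.21 and 0.29 TPM in parental cells with MAL3-101 and 0.20 and 0.28 TPM with DMSO. Of 7 other tested axonemal dynein genes, 0 were higher and 4 lower in RMS13-R than in parental cells with MAL3-101, and 1 was lower without RMS13-R library A or parental MAL3-101 library B, and 2 without RMS13-R library B, without parental MAL3-101 library A or with median-ratio scaling. Against DMSO, 1 of the 7 dynein genes, DNAH10, was higher and 2 were lower. GBA3 encodes a cytosolic beta-glucosidase and is annotated as a polymorphic pseudogene, since some human genomes carry a broken copy. It had 3.50 and 5.05 TPM in RMS13-R, the widest spread between libraries of the 31 genes, 0.06 and 0.10 TPM in parental cells with MAL3-101 and was listed at 0 in both DMSO libraries.

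Coding genes of little-known role were FAM78B, FAM53A and MYADML2. FAM78B had 6.92 and 7.38 TPM in RMS13-R, 0.29 and 0.33 TPM in parental cells with MAL3-101 and 0.70 and 0.36 TPM with DMSO. Its only relative in the files, FAM78A, was also higher, at 3.50 and 3.88 TPM in RMS13-R, 0.96 and 0.65 TPM in parental cells with MAL3-101 and 1.49 and 1.37 TPM with DMSO (log2 fold change 1.38 against MAL3-101, SE 0.16, adjusted p = 0.000315 by limma). FAM53A and its relatives differed in direction: FAM53A had 4.15 and 4.29 TPM in RMS13-R against 0.23 to 0.49 TPM in the parental libraries, while FAM53C had 27.27 and 27.00 TPM in RMS13-R and 76.74 and 71.85 TPM in parental cells with MAL3-101. MYADML2 had 3.48 and 3.77 TPM in RMS13-R, 0.64 and 0.76 TPM in parental cells with MAL3-101 and 0.61 and 0.31 TPM with DMSO.

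The other names were pseudogenes, non-coding RNAs and clone-named transcripts. AC037459.4, annotated as antisense, had 4.5 and 5.3 TPM in RMS13-R, and its parental values were uneven, with 0.95 and 0.00 TPM with MAL3-101 and 0.00 and 0.87 TPM with DMSO. AL626787.1, also antisense, had 4.28 and 4.95 TPM in RMS13-R and at most 0.07 TPM in any parental library, and the ratio of its means, 264, was the largest. AC005324.6, a processed pseudogene, had 5.19 and 4.63 TPM in RMS13-R against 0.20 to 0.43 TPM in the parental libraries. RPL7P3, a processed pseudogene of the ribosomal protein gene RPL7, had 3.10 and 3.11 TPM in RMS13-R, 0.32 and 0.49 TPM in parental cells with MAL3-101 and 0.30 and 0.55 TPM with DMSO. Its parent gene stood at 2920.28 and 2905.15 TPM in RMS13-R and 2409.80 and 2413.78 TPM in parental cells with MAL3-101, so a small share of reads placed on the wrong copy would change the level of the pseudogene, and that level is uncertain. AL132709.1, a lincRNA, had 3.28 and 4.15 TPM in RMS13-R against 0.43 to 0.58 TPM in the parental libraries. The 5 clone-named transcripts RP11-278H7.3, RP11-292B8.1, RP11-761I4.3, CTD-2357A8.3 and RP11-50C13.2 had between 3.54 and 5.0 TPM in RMS13-R and between 0.00 and 0.76 TPM in the parental libraries.

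The limits of 1 and 3 TPM cut through a continuous range of levels, as the scatter of all genes shows. Just outside the limit of 3 TPM were CDH18, with 3.24 and 2.97 TPM in RMS13-R and at most 0.69 TPM in parental libraries, then RP11-111G23.1, CNN2P1, PDE7B and IGSF11, whose lower RMS13-R libraries were at 2.88 to 2.92 TPM. Just inside it were RPL7P3, CCKBR, AL132709.1, MARVELD3 and MYADML2, with lower RMS13-R values of 3.10 to 3.48 TPM. Near the limit of 1 TPM, RP4-806M20.5 was outside by its highest parental value of 1.0 TPM although it had 12.20 and 11.91 TPM in RMS13-R, and SHC2, LINC00514, ANKRD63 and EPHA3 were outside with highest parental values of 1.02 to 1.19 TPM. Inside it with the highest parental values were AC037459.4, PRRX1, HSPA12A, GABRA5 and ATP6V0A4, at 0.85 to 0.95 TPM. Of the 39986 names under 1 TPM in every parental library, 192 reached 1 TPM in both RMS13-R libraries. The same limits turned round gave 52 genes switched off, under 1 TPM in both RMS13-R libraries and 3 TPM or more in all 4 parental ones.

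**Figure D2:**
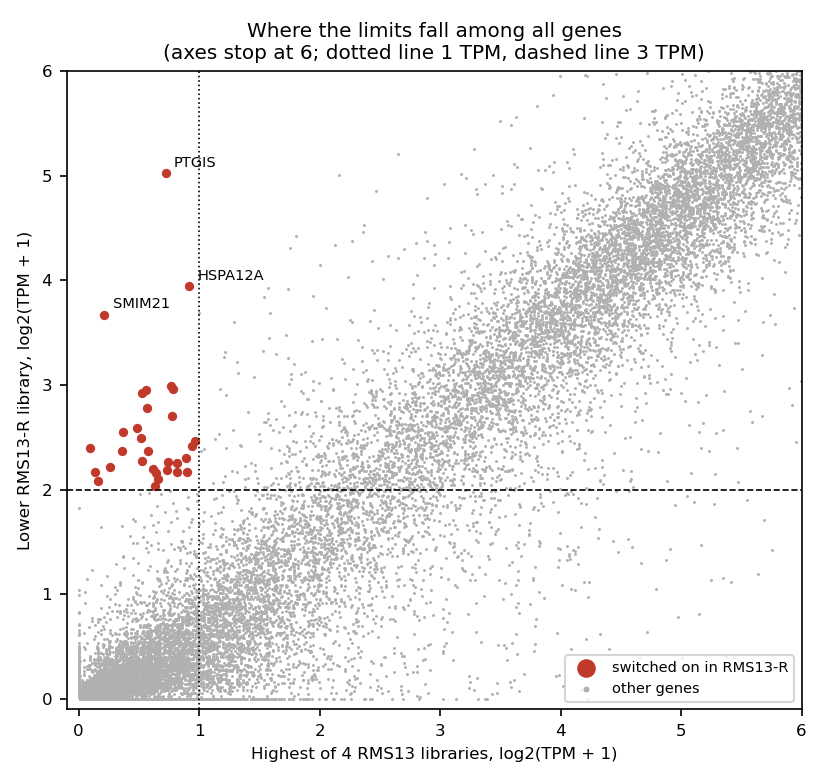
Lower of the 2 RMS13-R values against the highest of the 4 RMS13 values for every gene with a value above 0, as log2(TPM + 1); the 31 genes switched on are red and other genes grey, and the axes stop at 6. The red genes lie left of 1 TPM and above 3 TPM, with PTGIS, HSPA12A and SMIM21 farthest from the rest.

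Between the parental groups, both MAL3-101 values lay above both DMSO values in 9 of the 31 genes and below them in 6, and the groups overlapped in 16. The 9 genes above were SMIM21, CBLN2, PLCH1, GBA3, FAM53A, RP11-761I4.3, ATP6V0A4, SLC51B and MYADML2. The 6 genes below were CA12, FAM78B, THSD7A, CNTN5, AL132709.1 and MARVELD3. The matching shares of all tested genes are not given here, and each group had 2 libraries, so nothing is read from these 3 counts. The limits held both parental groups under 1 TPM, and the genes entered the test through their RMS13-R levels, so the choice of genes itself kept this difference small. For that reason nothing is read from the count of calls, which by limma's test was 0 of the 31, with 1 at an unadjusted p under 0.05, where 40.8% of all tested genes were called, 22.6% higher and 18.2% lower. The log2 fold changes ran between -0.40 for CA12 and 0.47 for RP11-761I4.3.

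The genes that could be placed were spread over many chromosomes. By name, 26 of the 31 were placed with GENCODE release 29, on 14 chromosomes, and the 5 clone-named transcripts were not placed. Chromosomes 1, 15 and 17 held 3 each, chromosomes 4, 5, 7, 11, 18 and 20 held 2 each, and chromosomes 3, 8, 10, 14 and 16 held 1 each. Chromosomes 2, 6, 9, 12, 13, 19, 21, 22 and X held 0, among them chromosome 2 with 1809 placed names under 1 TPM in all parental libraries and chromosome X with 1068. Chromosome 18 held 352 such names and 2 of the 31 genes, and chromosome 15 held 667 and 3. Of the 26 placed genes, 20 were protein-coding, 3 were pseudogenes and 3 were antisense or lincRNA genes. Protein-coding genes made up 76.9% of the placed genes switched on and 31.6% of the 21550 placed names under 1 TPM in all parental libraries. Names that were not placed are in neither share, among them the 5 clone-named transcripts. Of all 39986 names under that limit, placed or not, 24921 were at 0 in all 6 libraries, so the 2 shares are not of like genes.

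**Figure D3:**
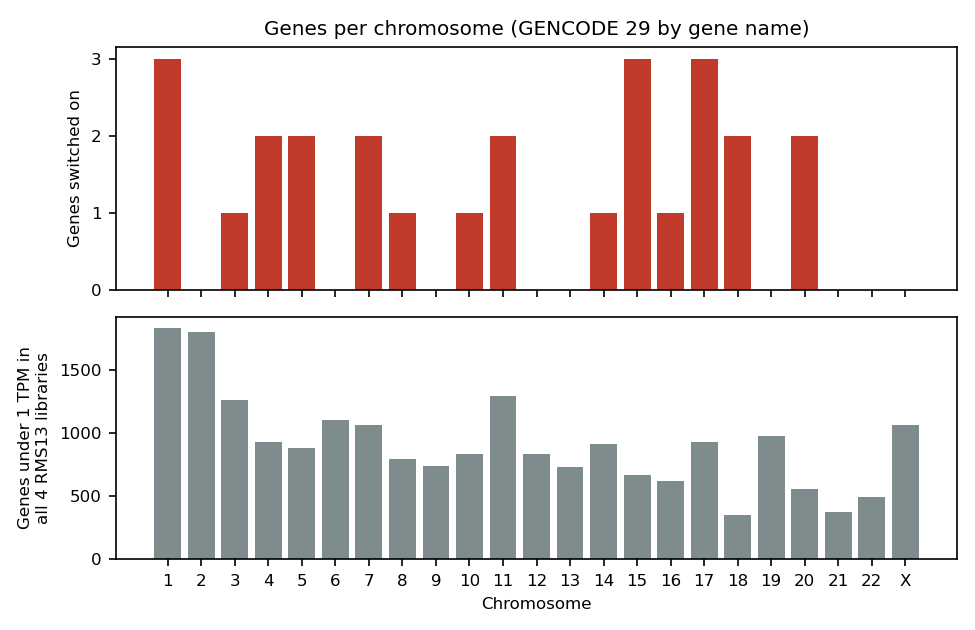
Genes switched on in RMS13-R (above, red) and genes under 1 TPM in all 4 RMS13 libraries (below, grey) on each chromosome, for names placed with GENCODE release 29. Chromosomes 1, 15 and 17 have 3 genes switched on, and 9 chromosomes have none of the 26 placed ones.

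A few of the 31 genes lay together. AL626787.1 lies on the opposite strand within FAM78B, and AC005324.6 overlaps TBC1D26 on the opposite strand. Whether counting used strand is not given in the sources used here, so the values of each of these pairs cannot be told apart. In the same way AC037459.4 overlaps SORBS3, an adaptor of the actin cytoskeleton, which had 68.79 and 70.76 TPM in RMS13-R, 19.39 and 18.98 TPM in parental cells with MAL3-101 and 19.33 and 28.75 TPM with DMSO (log2 fold change 1.81 against MAL3-101, SE 0.16, adjusted p = 9.51e-05 by limma). MYADML2 overlaps PYCR1, a proline synthesis gene, on its own strand. PYCR1 had 238.12 and 229.93 TPM in RMS13-R, 269.54 and 274.27 TPM in parental cells with MAL3-101 and 148.98 and 123.39 TPM with DMSO. CBLN2 overlaps the pseudogene HNRNPA1P11, which had 1.73 and 1.35 TPM in RMS13-R and at most 0.08 TPM in parental libraries.

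Other pairs on 1 chromosome were apart. Between CBLN2 and SMIM21 on chromosome 18 lay 18 listed genes, of which 8 were tested, 4 higher and 1 lower in RMS13-R than in parental cells with MAL3-101. CA12 and SLC51B on chromosome 15 had 26 listed genes between them, of which 18 were tested, 6 higher and 3 lower. Between AL626787.1 and PRRX1 on chromosome 1 lay 69, of which 28 were tested, 1 higher and 14 lower. SLC6A3 and DNAH5 on chromosome 5 had 57 between them.

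Expressed genes around the placed genes moved in both directions. The 5 nearest tested genes on each side of the 26 placed genes came to 238 distinct genes, of which 67, or 28.2%, were higher and 75, or 31.5%, lower in RMS13-R than in parental cells with MAL3-101, against 21.3% and 34.8% of all tested genes. These genes were not used to choose the 31, though some overlap one of them. The surroundings differed between places. Around FAM53A 8 of 10 neighbours were higher and 1 lower, around SLC51B and GABRA5 6 were higher and 0 lower, and around RPL7P3 6 were higher and 2 lower. Around ATP6V0A4 8 were lower and 0 higher, around THSD7A 7, and around TBC1D26 and PRRX1 6. Counts around single genes are from the fit over all 6 libraries and were not repeated with libraries left out. With median-ratio scaling 36.6% of the neighbours were higher and 25.2% lower, where 28.0% and 28.8% of all tested genes were, and without RMS13-R library B 16.8% were higher against 14.0% of all, without parental MAL3-101 library A 18.1% against 14.9%, and without RMS13-R library A 19.3% were lower against 25%.

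**Figure D4:**
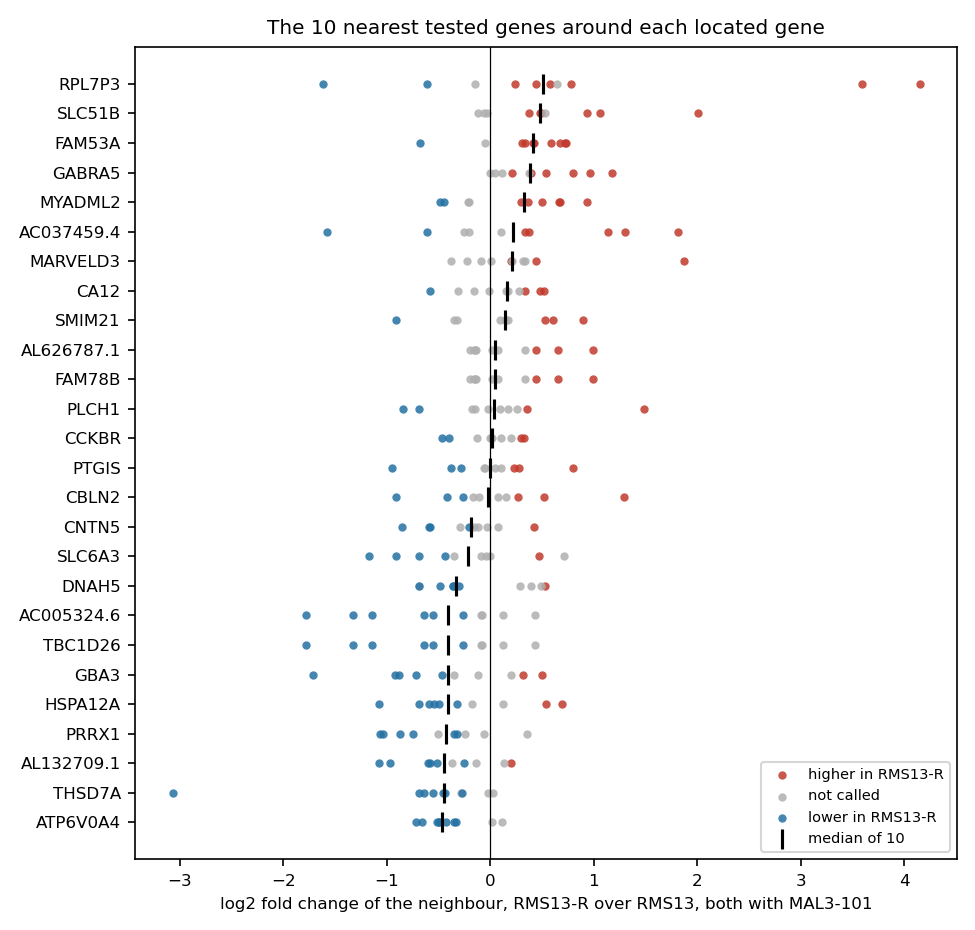
log2 fold change, RMS13-R over RMS13 with MAL3-101 in both, of the 10 nearest tested genes around each of the 26 placed genes, red where higher in RMS13-R, grey where not called and blue where lower by limma at an adjusted p under 0.05; the black mark is the median of the 10. RPL7P3 has 2 neighbours above 3 and THSD7A has 1 below -3.

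Of the 238 neighbours, 11 (4.62%) were more than 2-fold higher and 12 (5.04%) more than 2-fold lower in RMS13-R than in parental cells with MAL3-101, by the fitted log2 fold change, against 3.18% and 7.6% of all tested genes. Those named next were chosen after their values were seen. Next to RPL7P3 on chromosome 20, the non-coding gene C20orf166-AS1 averaged 468 TPM in RMS13-R, 25.5 TPM in parental cells with MAL3-101 and 22.3 TPM with DMSO (log2 fold change 4.15 against MAL3-101, SE 0.15, adjusted p = 3.17e-06 by limma), and C20orf166 averaged 22.1, 0.905 and 2.0 TPM in the same order of groups (log2 fold change 3.59). Beside MARVELD3, the sulfotransferase gene CHST4 averaged 4.65 TPM in RMS13-R, 0.545 TPM in parental cells with MAL3-101 and 2.04 TPM with DMSO. MME, which encodes the cell-surface peptidase neprilysin and lies beside PLCH1, averaged 123 TPM in RMS13-R, 42.9 TPM in parental cells with MAL3-101 and 41.9 TPM with DMSO. Near SLC51B, IGDCC3 averaged 20.9 TPM in RMS13-R, against 4.47 TPM in parental cells with MAL3-101 and 4.80 TPM with DMSO. In the other direction, ETV1, a transcription factor gene of the ETS family near THSD7A, averaged 2.22 TPM in RMS13-R, 25.8 TPM in parental cells with MAL3-101 and 27.7 TPM with DMSO (log2 fold change -3.07, SE 0.16), and PMP22, a myelin gene near TBC1D26, averaged 1.29 TPM, against 6.81 and 13.6 TPM. LAMA5, a laminin gene near RPL7P3, averaged 10 TPM in RMS13-R, 32.9 TPM in parental cells with MAL3-101 and 26.5 TPM with DMSO (log2 fold change -1.62), and SLC39A14, a metal ion transporter gene near AC037459.4, averaged 23.2, 71.5 and 28.0 TPM in the same order of groups (log2 fold change -1.58). These calls against parental MAL3-101 held under every alternative setting of the fit in which the gene was tested. LGI2, near GBA3, averaged 2.87 TPM in RMS13-R, 11.7 TPM in parental cells with MAL3-101 and 11.2 TPM with DMSO (log2 fold change -1.71), and was not called without RMS13-R library A or without parental MAL3-101 library A or B.

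The starts of the genes switched on were mixed in CpG content. RefSeq's promoter table held 16 of the 31, and each was read over 300 bases, 250 before and 50 after the start. The ratio of observed to expected CpG, where expected is the number of C times the number of G over the length, ran between 0.19 for DNAH5 and 1.07 for FAM53A, with a median of 0.59. It was 0.6 or more in 6 of the 16 (37.5%), which were CCKBR, FAM78B, CA12, CBLN2, CNTN5 and FAM53A. The same held for 32.3% of 5426 genes under 1 TPM in all parental libraries, where the median was 0.34, for 84.4% of 9096 genes at 1 TPM or more in all of them, where it was 0.85, and for 49.2% of all 27305 genes in the table. SMIM21 at 0.24 and TBC1D26 at 0.33 were among the CpG-poor starts, and HSPA12A at 0.59 lay just under the line.

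**Figure D5:**
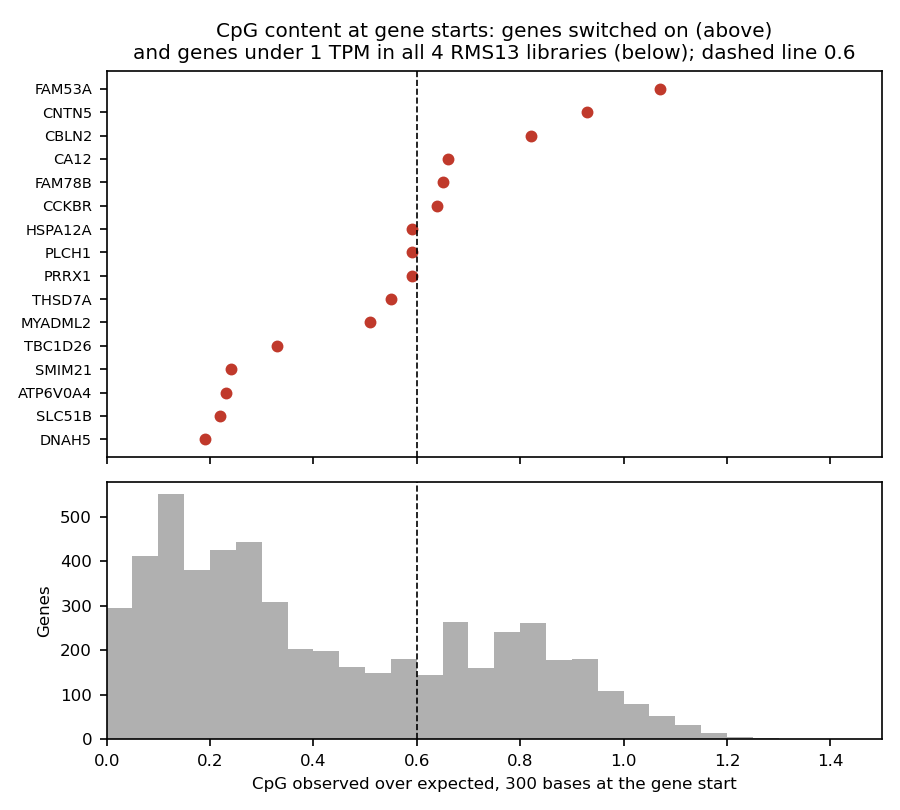
Observed over expected CpG in the 300 bases at the gene start for the 16 genes switched on that RefSeq's promoter table holds (above, red points) and for 5426 genes under 1 TPM in all 4 RMS13 libraries (below, grey bars, number of genes); the dashed line is 0.6. The red points run between 0.19 and 1.07, and 6 of 16 lie at or right of the line.

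Short motifs were counted in the same windows on both strands, and the letters of no motif are contained in another. The TATA box letters TATAAA were in 1 of the 16 starts, DNAH5 (6.25%, against 17.0% of the 5426 starts of genes under 1 TPM in all parental libraries and 12% of all starts in the table). The E-box CAGCTG, which reads the same on both strands, was in 5 (31.2%, against 18.5% and 17.7%), which were HSPA12A, THSD7A, CBLN2, SLC51B and MYADML2. The AP-1 element TGANTCA was in 2, SMIM21 and DNAH5 (12.5%, against 9.58% and 7.76%), and the C/EBP-ATF element TGATGNAA in 1, SLC51B (6.25%, against 4.42% and 3.67%). The CRE letters TGACGTCA and the heat shock element were in 0 of the 16. Of the starts of parental-silent genes 1.11% held the first and 0.498% the second, and of all starts 1.98% and 0.487%. With 16 starts, 1 start is 6.25%, and a match of letters shows neither a bound factor nor its absence.

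Functional lists set up for the description took in few of the genes. Of 20 lists of gene groups, 6 held a gene that was switched on and each held 1: PRRX1 among homeobox factors, GABRA5 among 290 ion channel genes, SLC6A3 among 419 solute carriers, CNTN5 among 314 adhesion genes, PTGIS among 326 enzymes of lipid mediators, retinoids, steroids and drugs, and HSPA12A among the chaperone genes. The other 25 genes were in no list. The lists of extracellular matrix genes, muscle contraction genes, synaptic and neuronal genes, cancer-testis genes, keratins and other developmental transcription factors held 0 of the 31. CCKBR was missed by the list of receptors, which went by gene name stems. SLC51B was likewise missed by the list of solute carriers, and CBLN2 by the list of synaptic and neuronal genes. These counts are therefore of the lists as written, and understate the genes of such kinds among the 31.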

How the data were processed

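Paired-end RNA sequencing libraries were made from total RNA with a TruSeq kit, per the labels' protocols. RSEM, DESeq and the genome build hg19 are named in the submitters' processing notes; for the aligner, the annotation, the versions and the strand setting, the sources used here give nothing. What the authors deposited is a TPM value for every gene name in each of 6 libraries, summing to 1000000 per library. No library was left out. Some results on relatives and neighbours are not reported here. Libraries were grouped by titles and descriptions, and the descriptions decided where a DMSO title also named the drug.

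The limits were applied to TPM as deposited by the authors. The 31 genes, the functional lists and the tests were chosen with earlier results of these data known; the sets of relatives and the neighbours were chosen after the 31 were known. The genes named are the 25 of highest mean level in RMS13-R, members of a functional list, genes next to each other, those nearest each limit and those with the widest spread between RMS13-R libraries, which together took in all 31. The test took in 15148 genes whose mean reached 1 TPM in some group, and was run with limma 3.58.1 in R 4.3.3 on log2(TPM + 1). A mean-variance trend was used, and group means came from all 6 libraries, with 3 residual and 4.17 prior degrees of freedom. Calls are at a Benjamini-Hochberg adjusted p under 0.05, adjusted over all tested genes of a comparison. The code was tested on simulated libraries.

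Gene types and order along chromosomes came by name from GENCODE release 29 and RefSeq, which placed 34925 of 55401 names (63.0%). As the files rest on hg19, coordinates on GRCh38.p14 are given for the printed sequences alone. Alternatives were other limits, pseudocounts, filters and scaling, a replicate block, and each library left out in turn. Python 3.11.15, pandas 2.3.3, numpy 2.4.6 and matplotlib 3.10.9 served for counts and figures.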

Additional observations from a re-analysis of the deposited data

How the results depend on the processing

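The number of genes switched on follows the limits. With a parental limit of 0.5 TPM it was 14 and with 0.1 TPM it was 1, and with a minimum in RMS13-R of 5 TPM it was 10 and of 10 TPM it was 3. Leaving out 1 library in turn gave 33 to 38 genes; the 31 are among them by construction, since fewer libraries only relax the limits. Median-ratio scaling gave 38, which held all 31, and leaving out mitochondrially encoded genes gave 34, which held 29 of them. Leaving out 1 library gave 5971 to 10105 called genes for RMS13-R against parental cells with MAL3-101, 4955 to 8675 for RMS13-R against DMSO, where the low counts were 4955 without RMS13-R library A and 5004 without B, and 3158 to 7708 for parental MAL3-101 against DMSO, where the low counts were 3158 without parental MAL3-101 library A and 3353 without B. A group of 1 library was then assumed to vary like the others. With a replicate block on the letters A and B the counts were 8381, 7492 and 5942, and the deviations of libraries with the same letter correlated by -0.0207, -0.0203 and 0.0263, so the libraries share a letter and no visible pairing. Of the log2 fold changes of the 31 genes under the alternatives of the fit, whose sign the limits fix, 285 values moved by less than the spread between replicates and 36 by more, 31 of the latter with a pseudocount of 0.1. Of the values of relatives called in the comparison with parental MAL3-101, 735 stayed called and 105 did not. RPL7 was not called without RMS13-R library A. TPM keeps no depth, so what depth limits cannot be given.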

Other observations

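Genes near the limits on 1 side only, chosen by the same levels and so given without a test, add to the picture. With only the DMSO libraries held under 1 TPM, 46 genes met the limits, and with only the parental MAL3-101 libraries 44. Both counts include the 31 genes that met them against both groups. Those that met them against MAL3-101 alone include FOXB1, a forkhead transcription factor gene, with 9.20 and 8.94 TPM in RMS13-R, 0.70 and 0.72 TPM in parental cells with MAL3-101 and 1.32 and 0.94 TPM with DMSO. FRZB, which encodes a secreted Wnt antagonist, had 4.25 and 4.35 TPM in RMS13-R, 0.71 and 0.82 TPM in parental cells with MAL3-101 and 1.34 and 0.84 TPM with DMSO. EPHA3, an ephrin receptor kinase gene, had 4.59 and 4.76 TPM in RMS13-R, 0.47 and 0.49 TPM in parental cells with MAL3-101 and 1.19 and 0.89 TPM with DMSO. Among those that met them against DMSO alone, SECTM1 had 9.89 and 10.40 TPM in RMS13-R, 1.06 and 1.99 TPM in parental cells with MAL3-101 and 0.76 and 0.77 TPM with DMSO, and CACNG6, which encodes an auxiliary subunit of a muscle calcium channel, had 6.49 and 7.55 TPM, 1.10 and 1.34 TPM, and 0.32 and 0.28 TPM in the same order of groups.

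In parental cells 11 genes went past the limits with MAL3-101, being under 1 TPM in both DMSO libraries and at 3 TPM or more in both MAL3-101 libraries. Of these, KLHDC7B was the 1 gene also at 3 TPM or more in both RMS13-R libraries, with 3.29 and 3.48 TPM in RMS13-R, 4.14 and 4.52 TPM in parental cells with MAL3-101 and 0.20 and 0.25 TPM with DMSO. NUPR1, a stress-induced regulator gene, had 1.84 and 1.43 TPM in RMS13-R, 10.86 and 9.86 TPM in parental cells with MAL3-101 and 0.34 and 0.34 TPM with DMSO, and EGR2, an immediate-early gene, had 2.74 and 3.14 TPM, 9.29 and 8.84 TPM, and 0.53 and 0.29 TPM in the same order of groups.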
